A study of Sus scrofa with 8 samples.

Results

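The citrate cycle enzymes described here are 9 genes, CS, IDH2, IDH3A, IDH3B, OGDH, SUCLA2, SUCLG1, FH and MDH2, among 5331 genes measured in the back muscle of pigs of 2 breeds. They were taken by name, through probe sets (groups of array probes for 1 transcript) to which the array's annotation gives exactly 1 gene symbol. All 9 genes had such a probe set, 11 probe sets in all, and all 11 passed the filter on dim signals, so no enzyme was lost to it. Total RNA of longissimus dorsi, a back muscle, was measured on 1-colour Affymetrix arrays, 1 per pig. There were 4 Korean native pigs, 7 months old, and 4 Yorkshire pigs, 6 months old. The labels name no treatment in either breed. The pigs were raised under shared conditions per the labels, and gave muscle from the level of the seventh to the ninth rib. The comparison asks which genes differ in expression between the muscles of the breeds, and since age differs too, effects of breed and of age cannot be told apart.

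The citrate cycle runs in the mitochondrial matrix. It joins acetyl groups from pyruvate or fatty acids to oxaloacetate and oxidises them to carbon dioxide, and the NADH and reduced flavin it makes feed the respiratory chain. In skeletal muscle its enzymes are more abundant in oxidative, mitochondria-rich fibres than in glycolytic ones, and the activity of citrate synthase is widely used as a measure of mitochondrial content. Array values are the deposited signals, linear intensities that had been scaled to a common level on each array. Fold changes are on the scale log2(signal + 32) and run from Korean native pig minus Yorkshire, so a positive value is higher in Korean native pigs. A bulk muscle piece holds fibres, vessels, fat and connective tissue, and fewer cells of a type and less RNA per cell cannot be told apart.

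The arrays carried the marks of skeletal muscle. The slow myosin heavy chain MYH7, the fast light chain MYLPF and the muscle creatine kinase CKM had signals between 46973 and 124382 on the 8 arrays. The arrays differed in 2 technical respects that both breeds share. The 3' over 5' signal of control transcripts, which is high where RNA or its copy is shortened, was 3.03 log2 units in Korean native pig 1 and 2.78 in Yorkshire 3, and between 0.85 and 1.52 on the remaining 6. Hybridisation controls were bright in replicates 1 and 3 of both breeds, at 13.41 to 13.70 log2 units, and dimmer in replicates 2 and 4, at 12.48 to 12.80.

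All 9 enzymes were expressed well above the array's background, and their signals are described here in tiers of mean signal. The faintest, IDH3B, had 789.1 to 1279 on the 8 arrays, where the 95th percentile of the negative controls was 91.5. CS had the highest mean signal, 16570, followed by IDH2 at 16352 and SUCLG1 at 14332.5. SUCLA2 at 8020, MDH2 at 6586 and FH at 6172 formed the middle tier. IDH3A at 2580, OGDH at 1959 and IDH3B at 1069 came last. Probe sets differ in how strongly they bind their transcript, so this is an order of signals and not of transcript numbers.

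The 3 tiers, drawn from the mean signals of these same 8 arrays, did not mix on any array. SUCLG1 exceeded SUCLA2 on 8 of 8 arrays, by 0.82 ± 0.35 log2 units (SD, n = 8), and FH exceeded IDH3A on 8 of 8, by 1.27 ± 0.36. Within the top tier the order was not settled. CS exceeded IDH2 on 6 of 8 arrays, by 0.043 ± 0.25, and IDH2 exceeded SUCLG1 on 6 of 8, by 0.18 ± 0.38, both gaps smaller than their SD. The same held in the middle tier, where SUCLA2 exceeded MDH2 on 6 of 8 arrays, by 0.29 ± 0.34, and MDH2 exceeded FH on 4 of 8, by 0.077 ± 0.24. The lowest tier kept its order on all 8 arrays, with IDH3A above OGDH by 0.38 ± 0.34 and OGDH above IDH3B by 0.85 ± 0.45. The gap from OGDH to IDH3B was no smaller than that from SUCLG1 to SUCLA2, so the grouping into 3 tiers is a description. These tiers are those of the brightest probe set of each gene. The second CS probe set averaged 3554, between the means of FH and IDH3A. The second IDH3A probe set averaged 2107. In Korean native pig 1 it was at 615.2, below OGDH at 1656 and IDH3B at 1279.

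**Figure D1:**
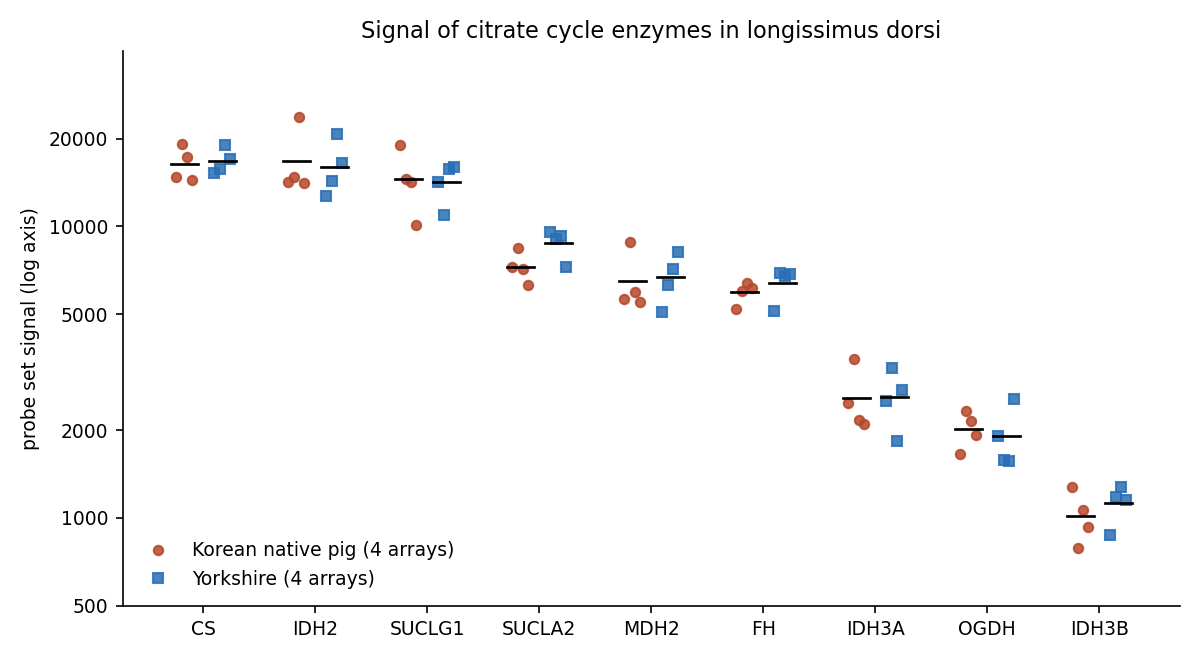
Deposited signal of the 9 enzymes (log axis) on the 4 Korean native pig arrays (circles, left of each pair) and the 4 Yorkshire arrays (squares), with bars at the breed means and the enzymes in order of mean signal. The values of the breeds overlap for each enzyme, and CS, IDH2 and SUCLG1 lie above the middle tier of SUCLA2, MDH2 and FH.

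None of the 9 enzymes passed the test for a breed difference, and their estimated changes were small. By limma, a linear model fitted to all 14399 probe sets tested, 0 of 9 had an adjusted p under 0.05, against 0% of all probe sets, and 0 of 9 had an unadjusted p under 0.05, against 3.96% of all. The breeds overlapped for 9 of 9 enzymes. Over all probe sets 2.56% showed no overlap. Of the 9 changes 6 were below 0, with a median of -0.036, while among all 5331 genes 50.4% were below 0, with a median of -0.00255. This count was 3 of 9 with each array centred on its median signal, a scaling that left 2053 of the 5331 genes below 0, and also 3 of 9 without Korean native pig 4. For the brightest probe set of each enzyme the 95% interval included 0. The bound farthest from 0 among these 9 corresponded to a 1.56-fold difference. Intervals of the second probe sets also included 0 but reached farther, at -0.27 to 0.66 for CS and -1.45 to 0.80 for IDH3A. The adjusted p was 0.999 for each of the 11 probe sets.

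The enzyme of the first step of the cycle did not pass the breed test, and its probe sets had estimates of opposite sign. CS, citrate synthase, which condenses acetyl-CoA with oxaloacetate, had signals of 14721, 19120.1, 17245 and 14461 in Korean native pigs 1 to 4 and 15176, 15779, 19030.8 and 17027 in Yorkshire pigs 1 to 4. Korean native pig 2 and Yorkshire 3 were the highest of their breeds, and the ranges overlapped. The log2 change was -0.036 (SE 0.17, 95% interval -0.40 to 0.33). Its second, fainter probe set averaged 3846 ± 1023 in Korean native pigs, against 3263 ± 265.3 in Yorkshire pigs (SD, n = 4), a log2 change of 0.20 (SE 0.21) with the opposite sign.

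Isocitrate is oxidised by different enzymes, and the array measured both kinds. IDH2, the mitochondrial enzyme that makes NADPH, had signals of 14136, 14790, 23725 and 14085 in Korean native pigs, against 12669, 14259, 20688 and 16463 in Yorkshire pigs. In both breeds replicate 3 was the highest, and the log2 change was 0.046 (SE 0.22, interval -0.44 to 0.53). IDH3A encodes the catalytic subunit of the NAD-dependent enzyme, the form that belongs to the cycle proper. Its signals were 2487, 3510.1, 2175 and 2105 in Korean native pigs, against 2518, 3269, 1834 and 2739 in Yorkshire pigs. Replicate 2 was the highest in both breeds, and the log2 change was -0.012 (SE 0.23, interval -0.51 to 0.48).

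IDH3B, a regulatory subunit of the same enzyme, had 1279, 789.1, 1067 and 931.6 in Korean native pigs, against 874.4, 1181, 1279 and 1148 in Yorkshire pigs. The lowest signal came from Korean native pig 2, the animal with the highest IDH3A. The log2 change of IDH3B was -0.14 (SE 0.21, interval -0.60 to 0.31). Of the 2-oxoglutarate dehydrogenase complex, OGDH is the component that decarboxylates 2-oxoglutarate. It had 1656, 2321, 2156 and 1929 in Korean native pigs, against 1909, 1578, 1563 and 2561 in Yorkshire pigs, with Yorkshire 4 above the other 7 animals. Its log2 change of 0.10 (SE 0.21, interval -0.35 to 0.55) was the highest among the brightest probe sets of the 9 genes.

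Succinyl-CoA synthetase showed the largest estimated difference, in 1 of its 2 subunits. SUCLA2, the beta subunit that makes the enzyme ADP-specific, had signals of 7226, 8411, 7131 and 6289 in Korean native pigs, against 9540.3, 9043, 9246 and 7271 in Yorkshire pigs. Yorkshire pigs 1, 2 and 3 were above every Korean native pig, and Yorkshire 4 lay within the Korean native pigs' range. The log2 change was -0.27 (SE 0.17, interval -0.64 to 0.098), with a limma unadjusted p of 0.135 and an adjusted p of 0.999. SUCLG1, the alpha subunit shared by both forms of the enzyme, had 19064, 14554, 14148 and 10142 in Korean native pigs, against 14156, 10894, 15763 and 15938 in Yorkshire pigs. The highest and the lowest of these 8 values were both Korean native pigs, and the log2 change was 0.0098 (SE 0.22, interval -0.46 to 0.48).

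The closing steps of the cycle gave small negative values. FH, fumarase, which hydrates fumarate to malate, had 5211, 5994, 6397 and 6149.7 in Korean native pigs, against 5113, 6900.2, 6759.8 and 6852 in Yorkshire pigs. Yorkshire pigs 2, 3 and 4 were the highest and Yorkshire 1 the lowest of all 8, and the log2 change was -0.10 (SE 0.17, interval -0.47 to 0.27). MDH2, the mitochondrial malate dehydrogenase that regenerates oxaloacetate, had 5653, 8840.5, 5965 and 5511 in Korean native pigs, against 5092, 6301, 7151 and 8171 in Yorkshire pigs. Korean native pig 2 was the highest and Yorkshire 1 the lowest, and the log2 change was -0.047 (SE 0.21, interval -0.51 to 0.41).

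**Figure D2:**
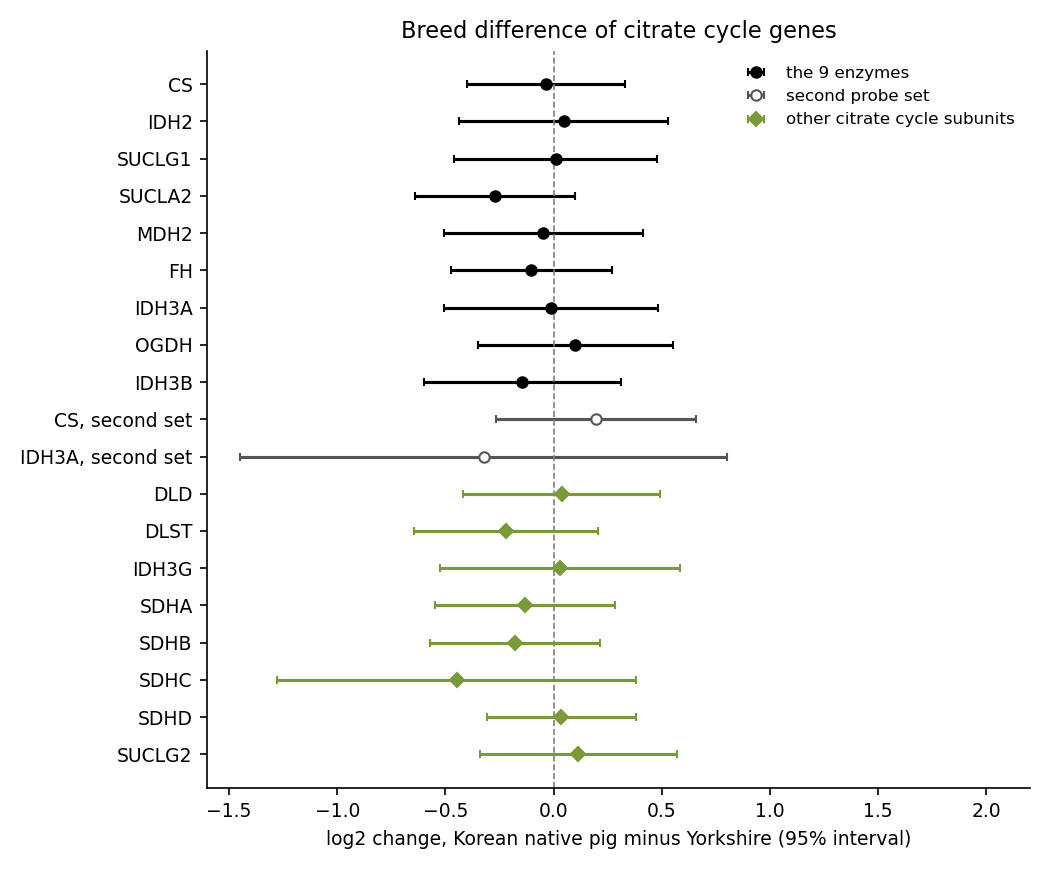
Log2 change between breeds (Korean native pig minus Yorkshire) with 95% intervals by limma, for the 9 enzymes (filled circles), the second probe sets of CS and IDH3A (open circles) and 8 other citrate cycle subunits (diamonds). The intervals of all 19 probe sets include 0, and the widest is that of the second IDH3A probe set, -1.45 to 0.80.

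The brightness of the hybridisation controls divided the arrays into 2 sets with 2 pigs of each breed, and the enzyme changes were recomputed within each. SUCLA2 was below 0 in both, at -0.39 with bright controls and -0.16 with dim ones, as were FH at -0.026 and -0.18 and MDH2 at -0.055 and -0.039. OGDH was above 0 in both, at 0.13 and 0.072. The other 5 had opposite signs in the 2 sets. CS was at -0.093 with bright controls and 0.021 with dim controls, and in the same sets IDH2 was at 0.18 and -0.086, IDH3A at 0.11 and -0.14, IDH3B at 0.14 and -0.43, and SUCLG1 at 0.14 and -0.12. No value passed in either set (limma adjusted p of at least 0.996).

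Ratios of enzymes within an array cancel a factor common to the whole array, though not a change in the shape of its signal distribution, and 4 were compared between the breeds. IDH3A over IDH3B, both subunits of the NAD-dependent isocitrate dehydrogenase, was 1.302 ± 0.545 in Korean native pigs, against 1.17 ± 0.45 in Yorkshire pigs on the log2 scale (SD, n = 4), with p = 0.743 by a two-sided exact permutation test. SUCLA2 over SUCLG1 was -0.96 ± 0.31 in Korean native pigs, against -0.68 ± 0.36 in Yorkshire pigs (exact permutation p = 0.314). IDH2 over IDH3A was 2.68 ± 0.57 in Korean native pigs, against 2.62 ± 0.60 in Yorkshire pigs (exact permutation p = 0.886). Its breed difference of 0.058 was 0.129 with quantile normalisation and 0.404 without the 2 arrays of high 3' over 5' signal. MDH2 over CS, the enzymes on either side of oxaloacetate, was the steadiest, at -1.35 ± 0.17 in Korean native pigs, against -1.34 ± 0.21 in Yorkshire pigs (exact permutation p = 0.914). After Benjamini-Hochberg adjustment over the 4 ratios each exact permutation p was 0.914, and the smallest p this design allows is 0.0286.

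The enzymes' spread from animal to animal was near that of genes of like signal. The SD of log2 signal within breeds had a median of 0.27 over the 9, against 0.36 over all 5331 genes and 0.29 over the 1590 genes whose mean signal lay between those of IDH3B and CS. CS at 0.17, FH at 0.17 and SUCLA2 at 0.17 were the steadiest. IDH3A and IDH2 varied most, at 0.34 each. Over all 8 arrays the highest signal exceeded the lowest 1.32-fold for CS and 1.35-fold for FH, and 1.91-fold for IDH3A. These values come from the brightest probe set of each gene. The second CS probe set had an SD of 0.30 and a 1.95-fold range. The second IDH3A probe set had an SD of 0.98 and a 7.94-fold range.

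CS and MDH2 had the highest correlation over all 8 animals, while the 9 enzymes as a whole followed each other loosely. Over the 8 arrays the log2 signals of CS and MDH2 correlated at Pearson r = 0.81 (exact permutation p = 0.019) and Spearman rho = 0.81 (exact permutation p = 0.0218). Neither passed after adjustment over the 36 pairs of enzymes (exact permutation, adjusted p = 0.683 for r and 0.662 for rho). Without the 2 arrays farthest from the median of CS, r was 0.68, and without the 2 farthest for MDH2 it was 0.83. It was 0.88 within the 4 Korean native pigs and 0.70 within the 4 Yorkshire pigs, 0.80 with breed means removed and 0.91 with the means of the bright and dim arrays removed. Sets of 4 arrays are too few for a correlation test. With 1 animal left out r was 0.71 to 0.86, and without Korean native pig 2 it was 0.71, below CS with IDH2 at 0.82 and FH with MDH2 at 0.77.

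Of the 36 pairs 24 had a positive r, or 66.7%, against 50.7% of all pairs of measured genes, and the median r was 0.16, against 0.0085 for all pairs. The arrays share their scaling and RNA quality, so these shares are descriptions. Only 4 pairs exceeded r = 0.5, or 11.1% against 12.4% of all pairs. They were CS with MDH2, CS with IDH2 at 0.60, FH with MDH2 at 0.54 and IDH2 with FH at 0.53. In these last 3 the exact permutation p for r was 0.123, 0.166 and 0.148 (adjusted p = 0.943 each), and rho was 0.76, 0.52 and 0.57. Without the 2 arrays farthest from the median of the first-named enzyme, r was 0.79 for CS with IDH2, -0.0081 for FH with MDH2 and 0.71 for IDH2 with FH. Without the 2 farthest for the second-named enzyme these were 0.53, 0.80 and 0.18, so the relations of FH to MDH2 and to IDH2 depended on which arrays were left out. With the means of the bright and dim arrays removed the 3 values of r were 0.64, 0.40 and 0.85.

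Subunits of the same enzyme were not among the closely covarying pairs. IDH3A and IDH3B had r = -0.37 and rho = -0.43 (exact permutation p = 0.363 for r and 0.299 for rho), and SUCLA2 and SUCLG1 had r = 0.11 and rho = 0.19 (exact permutation p = 0.779 for r and 0.665 for rho). The lowest values were those of IDH3B with OGDH, at r = -0.51 and rho = -0.64 (exact permutation p = 0.190 and 0.0962), and of IDH2 with IDH3A, at r = -0.51 and rho = -0.14 (exact permutation p = 0.199 and 0.752). With the 2 arrays farthest from the median of the first-named enzyme left out, these 4 values of r were 0.47, -0.52, -0.45 and 0.29 in the order given, and none of the 36 pairs passed after adjustment.

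**Figure D3:**
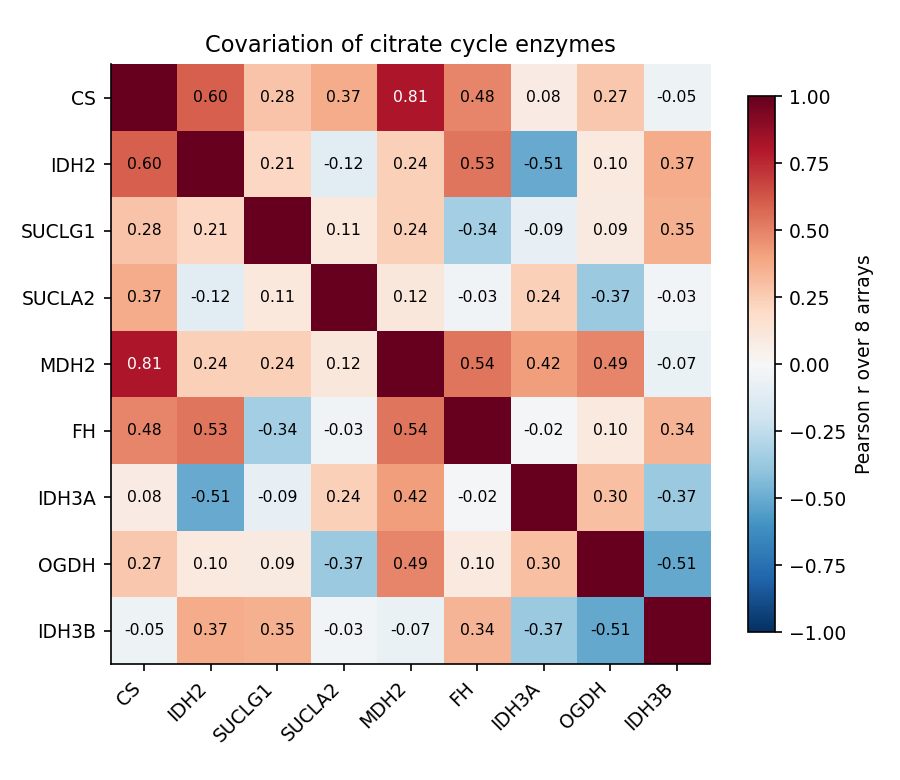
Pearson r of log2 signal over the 8 arrays for each pair of the 9 enzymes, ordered by mean signal, from blue (-1) to red (1). CS with MDH2 is the highest at 0.81, and IDH3B with OGDH the lowest at -0.51.

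By animal, the mean of the 9 enzymes, each taken relative to its own mean, was highest in Yorkshire 4 at 0.14 log2 units, where 8 of 9 enzymes were above their mean. SUCLA2 was the exception. Korean native pig 2 was at 0.11 and Yorkshire 3 at 0.084. Korean native pig 4 was lowest at -0.20, with 1 of 9 above, and Yorkshire 1 next at -0.12, with 2 of 9 above. Both breeds thus had animals near the top and the bottom. CS and MDH2 followed this mean most closely (r = 0.84 and 0.85), and IDH3B least (r = 0.23), where each enzyme is itself part of the mean.

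**Figure D4:**
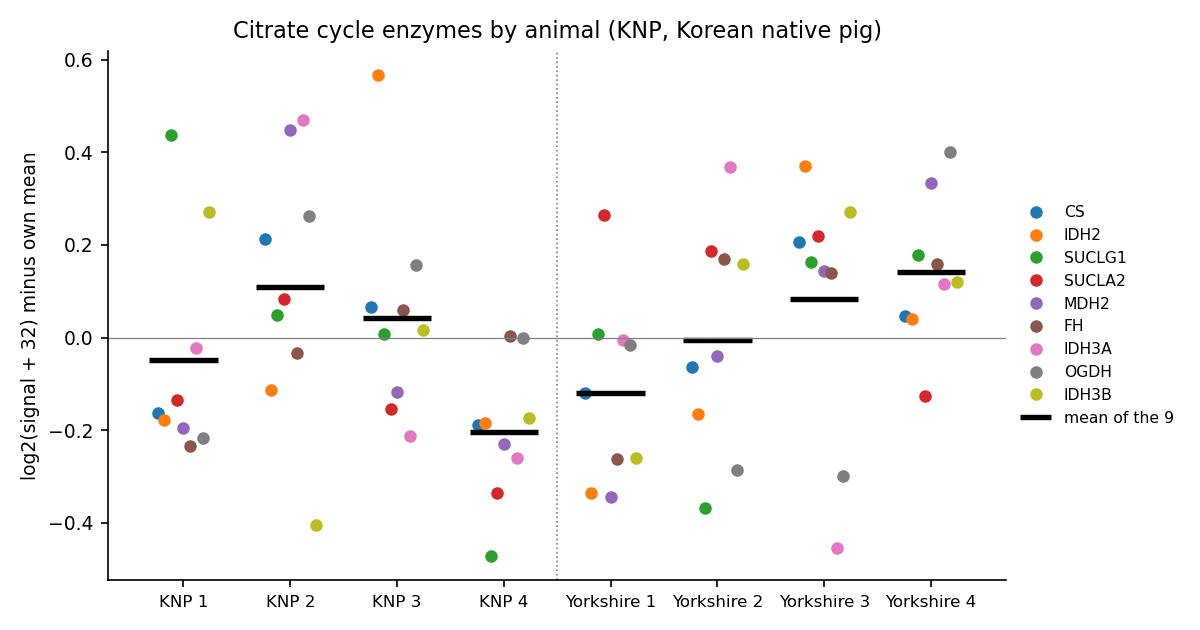
Log2(signal + 32) of each enzyme minus its own mean over the arrays, for the 4 Korean native pigs (left) and the 4 Yorkshire pigs (right), with black bars at the mean of the 9. The bars run from -0.20 in Korean native pig 4 to 0.14 in Yorkshire 4, and each breed has bars above and below 0.

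Outside the 9, the gene whose signal followed that mean most closely among 5322 candidates was NDUFA9, a subunit of respiratory complex I, with r = 0.96 and rho = 0.90 over 8 arrays. It averaged 5677 ± 788.1 in Korean native pigs, against 6148 ± 707.5 in Yorkshire pigs (SD, n = 4). The next were PLBD2 at r = 0.93, OXNAD1 at 0.93, GLRX3 at 0.92, an iron-sulphur handling glutaredoxin, RPL7L1 at 0.92 and SIAH2, a ubiquitin ligase, at 0.91. These are the highest of many correlations and are given as a description.

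The enzymes were also set against 3 gene lists, each as the mean log2 signal of its measured genes. With the respiratory chain 8 of 9 enzymes had a positive r, with a median of 0.40. MDH2 was highest at r = 0.71 and rho = 0.76 (exact permutation p = 0.0518 and 0.0368), or r = 0.44 without the 2 arrays farthest from the list's median and 0.73 with the means of the bright and dim arrays removed, and OGDH was lowest at -0.18. With slow fibre genes 7 of 9 were positive (median 0.27). IDH3B stood highest at r = 0.86 and rho = 0.81 (exact permutation p = 0.00885 and 0.0218), or r = 0.75 without the 2 farthest arrays. That r was 0.84 with breed means removed, 0.88 with the means of the bright and dim arrays removed and 0.77 over the 6 arrays of lower 3' over 5' signal. With glycolysis genes 7 of 9 were positive (median 0.25, highest 0.50 for IDH3B). The share of all measured genes with a positive r to each list was not computed. The arrays also share their scaling and RNA quality, so these counts are descriptions only. Of the 27 relations 0 passed after adjustment (exact permutation, smallest adjusted p = 0.239), and 1 had an unadjusted p for r under 0.05.

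A second, fainter probe set of IDH3A had its lowest signals on the 2 arrays of high 3' over 5' signal. Its signal was 615.2 in Korean native pig 1 and 1000.3 in Yorkshire 3, the arrays of high 3' over 5' signal, and 1535 to 4883 on the other 6. Both were below every other array, with a mean log2 difference of -1.51. The brighter IDH3A probe set had 2487 and 1834 on the same arrays and 2105 to 3510.1 on the others, so the groups overlapped. Over the 6 other arrays, r with the 3' over 5' signal was -0.75 for the second IDH3A probe set and -0.64 for the brighter one, with rho at -0.77 for both (exact permutation p = 0.0861 and 0.165 for r, 0.103 for rho). MDH2 had r = -0.68 and rho = -0.89 (exact permutation p = 0.128 and 0.0333). Over the 11 probe sets the smallest adjusted p for r was 0.455 (exact permutation). IDH3B differed the other way, at 1279 on both arrays and 789.1 to 1181 on the other 6. SUCLG1, OGDH and the second CS probe set overlapped between those 2 arrays and the other 6. Their mean log2 differences were 0.40, -0.34 and -0.36, against 0.36 for IDH3B. The second IDH3A probe set had a log2 change between breeds of -0.32 (SE 0.52), which was -0.21 without those 2 arrays and 0.11 when either Korean native pig 1 or Yorkshire 2 was left out. The IDH3A probe sets correlated at r = 0.72 and rho = 0.79 over the 8 arrays (exact permutation p = 0.0411 and 0.0279, adjusted over 2 genes 0.0821 and 0.0559), or r = 0.59 without the 2 arrays farthest from the median, and those of CS at r = 0.62 and rho = 0.55 (exact permutation p = 0.0998 and 0.171), or r = 0.64 without the 2 farthest.

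**Figure D5:**
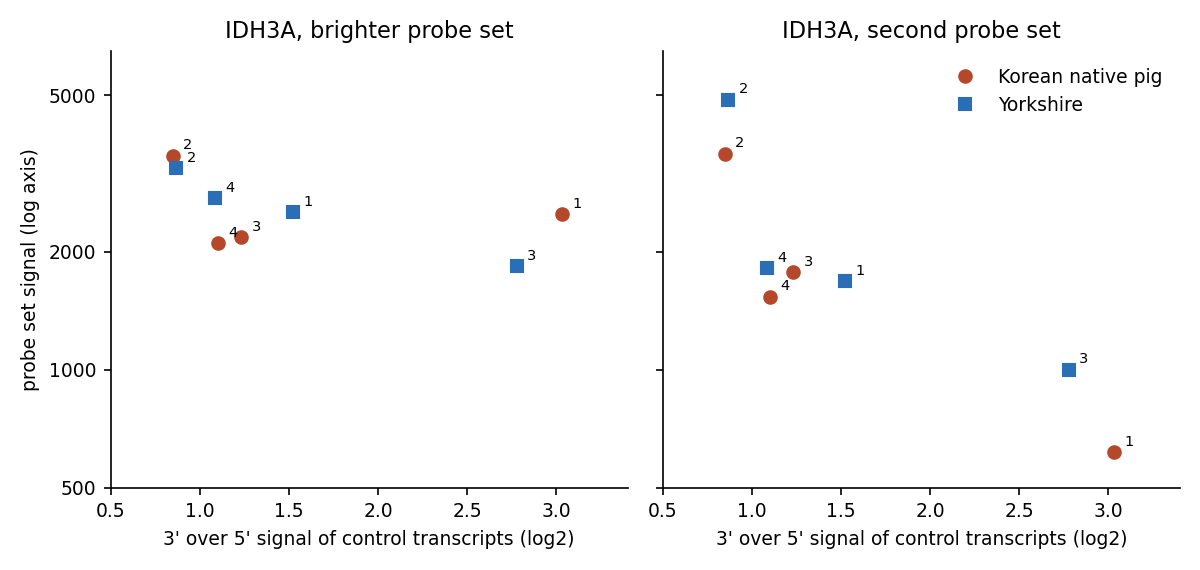
Signal of both IDH3A probe sets (log axis) against the 3' over 5' signal of control transcripts (log2 units) for 4 Korean native pigs (circles) and 4 Yorkshire pigs (squares), numbered by replicate. On the 2 arrays beyond 2.7 log2 units the second probe set is at 615.2 and 1000.3, below the other 6 arrays.

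None of the remaining subunits of the cycle passed the breed test. Of 8 with a measured probe set 0 passed (limma, 0 at an unadjusted p under 0.05). Of their changes 4 were below 0, against 50.4% of all 5331 genes. Their median was -0.051 (0.025 with arrays centred on their median). SDHC, a membrane anchor of succinate dehydrogenase, was at -0.45 (SE 0.38), with 1767 ± 811.6 in Korean native pigs, against 2351 ± 1116 in Yorkshire pigs (SD, n = 4). Leaving out Korean native pig 1 gave -0.087, and leaving out Yorkshire 2 gave -0.16. The catalytic subunits SDHA and SDHB were at -0.13 and -0.18, with second probe sets at -0.16 and 0.083, and SDHD, the other anchor, at 0.036. DLST, the transferase of the 2-oxoglutarate dehydrogenase complex, was at -0.22, and DLD, its dihydrolipoamide dehydrogenase, at 0.037. IDH3G, the other regulatory subunit of the NAD-dependent isocitrate dehydrogenase, was at 0.030, and SUCLG2, the GTP-specific partner of SUCLG1, at 0.11. The beta subunits SUCLA2 and SUCLG2 thus had estimates of opposite sign, and neither passed, and SUCLG2 had both signs across the alternative settings.

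Genes that feed the cycle or mirror it outside the mitochondrion did not pass either. Of 8 genes of pyruvate entry 7 were below 0 (median -0.11), or 4 with arrays centred on their median. Among them were PC, pyruvate carboxylase, which makes oxaloacetate, at -0.39 (SE 0.26) and PDK4, a kinase that shuts pyruvate dehydrogenase, at -1.13 (SE 0.86), with PDK4 signals from 636.5 to 20248 across animals. The change of PDK4 was -0.18 without Korean native pig 1 and -0.12 without the 2 arrays of high 3' over 5' signal. Of 9 cytosolic counterparts and shuttles 6 were below 0 (median -0.0998), or 5 with that centring. The citrate carrier SLC25A1 was at -0.47 and the cytosolic malate dehydrogenase MDH1 at -0.31, against -0.047 for the mitochondrial MDH2. Of 53 respiratory chain genes 39 were below 0 (median -0.097), or 30 with that centring, with ATP5B at -0.26 and ATP5A1 at -0.32. Of 6 genes of mitochondrial biogenesis 5 were below 0 (median -0.029), or 2 with that centring. PPARGC1A was at -0.96 (SE 0.41, limma unadjusted p = 0.0381, adjusted p = 0.999), and SIRT3, a mitochondrial deacetylase, at 0.46. The change of PPARGC1A was -0.49 without Yorkshire 3 and -0.38 without the 2 arrays of high 3' over 5' signal. With quantile normalisation 7, 6, 36 and 5 genes of these 4 lists were below 0, in the order given. Of all 5331 genes 2685 were below 0, or 2053 with arrays centred on their median and 2670 with quantile normalisation. None of the genes in these 4 lists passed, and at an unadjusted p under 0.05 limma gave only PPARGC1A.

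Fibre markers are given with their summed signal per array, and the other lists with their changes alone. The enzymes' own sum was 61605 to 80009 in Korean native pigs, against 67047 to 83315 in Yorkshire pigs. The 8 fast fibre genes summed to 397031 to 586749 in Korean native pigs, against 533622 to 842122 in Yorkshire pigs, with 8 of 8 changes below 0 (6 of 8 with quantile normalisation), among them TNNC2 at -0.42 and MYL1 at -0.33. The 8 slow fibre genes summed to 212176 to 420238 in Korean native pigs, against 289812 to 496720 in Yorkshire pigs, with 7 of 8 below 0, MYL2 at -0.24 and MYH7 at -0.28. With quantile normalisation TNNC2 was at -0.12, MYL1 at -0.030, MYL2 at -0.0011 and MYH7 at -0.063, and the median of the fast fibre genes was -0.021, against -0.32 as deposited. Of 14 glycolysis genes 12 were below 0, with ENO1 at -0.79 and LDHA at -0.41. Of 11 connective tissue genes 11 were below 0, with FBN1 at -0.52 and COL5A1 at -0.39, and of 9 adipocyte genes 6, with CFD at 0.70 and CIDEA at -0.79. Of 8 endothelial genes 3 were below 0 (5 with quantile normalisation), with EGFL7 at -0.62 and ENG at -0.64. Of 4 macrophage and lymphocyte genes 0 were below 0, with AIF1 at 0.71 and CD3E at 0.11, and of 3 red cell genes 1, with ALAS2 at -0.47 and HBM at 0.28. Some of these genes were dim. CIDEA, AIF1, CD3E, ALAS2 and HBM each had 1 array below 91.5, the 95th percentile of the negative controls, and ENG had 2. Among all 5331 genes 50.4% were below 0. No gene of these lists passed by limma (ENO1 and EGFL7 at an unadjusted p under 0.05). Of the 32 named genes outside the 9, 28 moved by over 1.5 times when some 1 animal was left out, so their values are loose estimates. The part of fibre and cell makeup in the enzymes' values was not tested.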

How the data were processed

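The authors deposited 1 linear intensity value per probe set and array, 24123 probe sets on 8 arrays. Per the submitters' processing notes the software was GCOS 1.3, while filters, the target of scaling and how probes were combined were not given in the sources used here. The mean of each array, after trimming 2% of values at either end, was 500.1 to 500.2, so values are relative to the other probe sets of an array. Gene names came from GEO's platform annotation (10099 probe sets with 1 symbol, 198 with several, 13826 unnamed here), with 0 symbols changed against the Sscrofa11.1 gene table.

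Values were transformed to log2(signal + 32), a scale that makes changes of dim genes smaller. Array controls (124) and the dimmest 40% of the rest were left out, which left 14399. The model had a breed term only and was run in limma 3.58.1 (R 4.3.3; lmFit, then eBayes with trend) over the 8 arrays, with Benjamini-Hochberg adjustment over all. The probe set of highest mean signal stood for a gene. The members, gene lists and tests were chosen with earlier results of these data known. The text names every enzyme, every measured gene of the list of other cycle subunits, from each other list the 2 genes of smallest p, and the 6 genes most correlated with the enzymes' mean. Correlations and ratios were tested by exact permutation, two-sided, over the 40320 orders of 8 arrays or the 70 labellings. For correlations with the 3' over 5' signal the orders were those of the 6 arrays used. The 4 arrays per breed limit the precision: the median SE was 0.28 over all probe sets and 0.21 over the enzymes. Arrays of a breed are biological replicates, per the labels. On data simulated from these arrays, with 200 of 14399 probe sets changed, the fit found 2.0% of those set to a log2 change of 0.5, 23.8% of those set to 1 and 77.4% of those set to 2. Replicate numbers were checked for pairing. Gene signals of same-numbered arrays did not deviate together for every number, so no block was used, but the hybridisation controls had the same rank order by number in both breeds. Alternatives changed the pseudocount, filter, scaling, trend, blocks, arrays and probe set rule. For the 3' over 5' signal and the hybridisation controls no correlation over all arrays is given, since the arrays form separate clusters.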

Additional observations from a re-analysis of the deposited data

Results flagged for a closer look

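In 6 of 94 groups of 4 arrays, 1 animal lay far from the other 3 of its breed (Dixon's test on log2 signal or ratio), where chance gives about 1 in 20. Of these 3 were among the 22 groups of the enzymes' probe sets. IDH2 had a signal of 23725 in Korean native pig 3, above the other Korean native pigs, and MDH2 one of 8840.5 in Korean native pig 2. FH had 5113 in Yorkshire 1, below the other Yorkshire pigs. Among other genes, SDHC had 4017 in Yorkshire 2, DLD 5680.0 in Yorkshire 4 and LDHA 98983 in Yorkshire 4.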

How the results depend on the processing

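No enzyme passed under any of 182 combinations of an enzyme with an alternative setting (limma, lowest adjusted p = 0.963). The estimates of OGDH, SUCLA2 and FH kept their sign in all of them, with SUCLA2 between -0.39 and -0.16, OGDH between 0.017 and 0.25 and FH between -0.21 and -0.012, the last 2 coming close to 0. The other 6 enzymes changed sign in at least 1. The filter, trend and block settings left every enzyme's estimate as it was, so they do not bear on its sign. CS was at 0.014 with quantile normalisation, 0.040 with arrays centred on their median, 0.075 without the 2 arrays of highest 3' over 5' signal and 0.080 as the mean of its probe sets. IDH3A was at 0.064 and MDH2 at 0.028 with arrays centred on their median. Without those 2 arrays MDH2 was at 0.049, SUCLG1 at -0.078 and IDH3G at -0.038, IDH2 at 0.24 against 0.046, and the breed difference of IDH2 over IDH3A at 0.404 against 0.058. Within the bright arrays IDH3A was at 0.11, IDH3B at 0.14, SDHA at 0.061, DLD at -0.16, SLC25A1 at 0.11, SIRT3 at -0.099, MYL2 at 0.031, MYH7 at 0.015, CD3E at -0.086 and ALAS2 at 0.16. Within the dim arrays CS was at 0.021, IDH2 at -0.086, SUCLG1 at -0.12, SUCLG2 at -0.042, IDH3G at -0.23 and HBM at -0.16. The ratio of IDH3A over IDH3B differed between breeds by -0.023 with the mean of both IDH3A probe sets, against 0.13.

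Leaving out 1 animal at a time gave -0.11 to 0.027 for CS, -0.14 to 0.18 for IDH2, -0.17 to 0.11 for IDH3A, -0.13 to 0.17 for SUCLG1, -0.20 to 0.056 for MDH2 and -0.71 to 0.11 for the second IDH3A probe set. For other genes it gave -0.075 to 0.21 for SUCLG2, -0.018 to 0.088 for SDHD, -0.16 to 0.12 for DLD, -0.13 to 0.28 for IDH3G and -0.37 to 0.37 for CD3E. The breed difference of the ratio was -0.14 to 0.25 for IDH3A over IDH3B, -0.19 to 0.34 for IDH2 over IDH3A and -0.091 to 0.083 for MDH2 over CS. The correlation was -0.50 to 0.35 for SUCLA2 with SUCLG1 and -0.57 to 0.037 for IDH3A with IDH3B. The enzymes' median change was -0.11 to 0.024, their number below 0 was 3 to 7, and their median pairwise r was 0.059 to 0.23. The median change was 0.11 within the bright arrays, and 3 enzymes were below 0 with arrays centred on their median. Of the 32 other genes named, 28 moved by over 1.5 times without some 1 animal. The causes were not tested. The effect of both scalings on the gene lists was examined after the data were seen. With quantile normalisation PLBD2, OXNAD1 and SIAH2 correlated with the enzymes' mean at 0.70, 0.80 and 0.77. With the mean of all probe sets NDUFA9, PLBD2 and GLRX3 were at 0.85, 0.81 and 0.82, and with arrays centred on their median PLBD2 and SIAH2 were at 0.89 and 0.78.

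With the replicate number as a block 1 probe set of all passed, none of an enzyme. No label ties animals of the same number together, and deviations from the breed means correlated at -0.043, 0.31, 0.10 and 0.054 between animals of the same number. For Korean native pigs 1 to 4, the highest correlation with a Yorkshire pig of another number was 0.36, 0.14, 0.036 and 0.035. The same number thus gave the higher value for animals 2, 3 and 4, but not for 1. The hybridisation controls, however, had the same rank order by number in both breeds.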
